A study of Homo sapiens with 6 samples.

Results

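A set of 10 genes of the transcriptional stress response centred on ATF4 and CHOP (the product of DDIT3) were followed in MDA-MB-231 cells given mitocurcumin. They were taken by gene symbol: ATF4, ATF5, ATF3, DDIT3, CEBPB, CEBPG, CEBPD, JDP2, TRIB3 and NUPR1. Each matched 1 of the 58656 rows of the deposited table, and all 10 passed the filter on low counts, as did 16481 rows in all. Only 8 of them encode bZIP proteins, because TRIB3 is a pseudokinase and NUPR1 is a small chromatin-associated protein. MDA-MB-231 is an established line of human triple-negative breast cancer, so the results describe a single line, at 1 dose and 1 time. The control group was 3 libraries from cells kept with the DMSO vehicle for 9 hours, and the treated group was 3 libraries from cells kept with 5 µM mitocurcumin, a curcumin derivative directed to mitochondria, for the same 9 hours.

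bZIP factors bind DNA as dimers through a basic region and a leucine zipper, and the partner decides which sites a dimer prefers. When the initiation factor eIF2alpha is phosphorylated by 1 of its stress kinases, general translation falls while ATF4 mRNA, held back by upstream open reading frames, is translated more efficiently. ATF4 then pairs with C/EBP proteins on composite elements of stress genes, and its targets include further bZIP factors such as CHOP and ATF3 as well as the feedback regulator TRIB3. The response is known to follow amino acid shortage, endoplasmic reticulum stress and mitochondrial dysfunction. Messenger RNA was measured here, so translation and protein levels were not.

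The composite element on which ATF4 and C/EBP proteins pair is written TGATGNAAN, and its matches in the promoters of these genes are shown because they are what some of the risen genes have in common. RefSeq promoters (GRCh38.p14, 250 bases before to 50 after a start) were given for 8 of the genes, with 19 starts in all, and NUPR1 and CEBPD had none. Searched on both strands, 1 start each of JDP2, CEBPG and ATF3 held a match, which is 3 of 8 genes. Capitals mark the element.
JDP2, chr14:75427976-75428021, plus strand: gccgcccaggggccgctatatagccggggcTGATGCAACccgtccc
CEBPG, chr19:33374041-33374109, plus strand: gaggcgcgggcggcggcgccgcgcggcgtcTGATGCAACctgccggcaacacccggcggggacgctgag
ATF3, chr1:212565186-212565254, plus strand: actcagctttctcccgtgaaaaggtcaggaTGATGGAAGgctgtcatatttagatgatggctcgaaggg
JDP2 and CEBPG carried the identical letters TGATGCAAC, beginning at positions -16 and -42 relative to the start, and the match of ATF3 began at -191. Counted by gene, 4.45% of the 27305 genes in the table held TGATGNAAN. Counted by promoter, it was 3.61% of all 35116, and 3 of the 19 of these genes. The CRE core TGACGTCA, held by 1.85% of promoters, was in none of those of the 8 genes. The AP-1 site TGANTCA, held by 7.71%, was found as TGACTCA in promoters of DDIT3 and ATF5. No 2 of these motifs matched in the same gene of the 8. A match describes the letters in this window and no binding was measured.

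Library totals ran from 23146822 to 29104681 estimated counts. The labels call the replicates biological without naming separate cultures, so p-values measure the spread between these libraries. The line was named by the labels, and some markers were read beside that name, without identifying the line by themselves. The mesenchymal genes VIM and CD44 averaged 2161 and 2092 CPM in the controls. CPM is the count relative to the library total, unscaled for the markers here and TMM-scaled elsewhere. The receptors ESR1 and PGR stayed at or under 0.354 and 0.347 in every library. Of the other 5 luminal or receptor-positive markers, FOXA1 was at or under 0.402, while KRT8, KRT18, EPCAM and GATA3 averaged 232, 165, 22.3 and 13.7 CPM in the controls, and the list summed to 411 to 462 CPM in the controls and 391 to 401 in the treated libraries. SPARC, expected to be present, was at or under 0.928. The summed level of 7 blood and endothelial markers was 14.8 to 19.9 in the controls and 8.64 to 10.0 in the treated libraries, mostly through PECAM1, with CD3E, MS4A1, VWF and CDH5 at or near 0, and its part in the results was not tested. For 7 fibroblast and muscle markers, also expected absent, the sum was 15.1 to 17.8 in the controls and 14.0 to 18.7 in the treated libraries. COL1A1 and PDGFRB averaged 8.51 and 5.35 CPM in the controls, while COL3A1, DCN and DES were near 0.

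Of the 10 genes, 8 rose after mitocurcumin, 1 fell and 1 did not pass the test (edgeR's quasi-likelihood test, Benjamini-Hochberg adjusted p under 0.05 over all tested genes). Over all 16481 tested genes, 32.5% passed the same test, 14.7% as higher and 17.8% as lower. All 8 risen genes rose at least 2-fold, which 2.25% of tested genes did, and none of the 10 fell at least 2-fold, against 1.2% of tested genes. The groups did not overlap in 9 of the 10, against 44.9% of tested genes. The 10 genes were chosen with earlier results of these data known. In bulk RNA of this kind, fewer cells that express a gene and less RNA per cell cannot be told apart. The median change was 1.89 on the log2 scale, and -0.01 over all tested genes. Levels below are CPM, changes are log2 fold changes ± SE with 3 libraries in each group, and positions are on GRCh38.

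**Figure D1:**
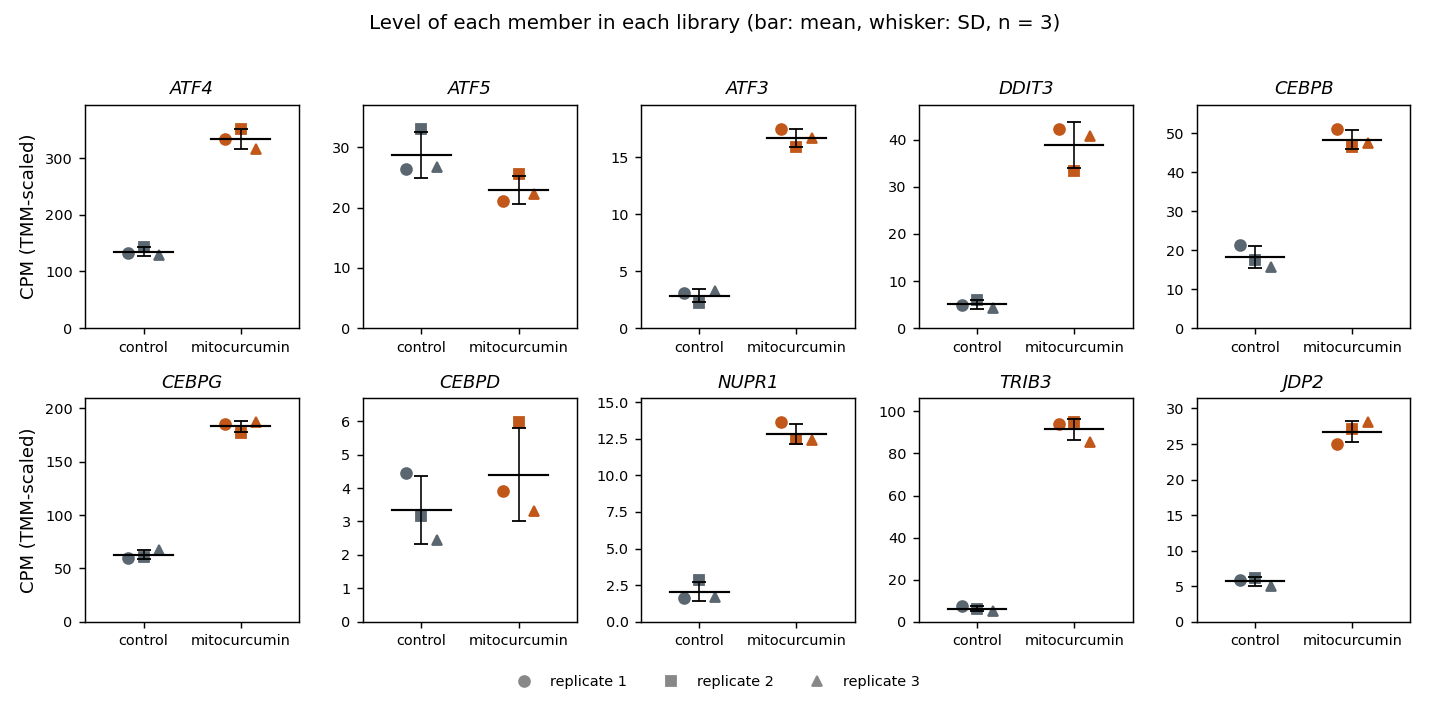
CPM (y axis, linear, from 0) of the 10 genes in the 3 control and 3 mitocurcumin libraries, with a marker shape for each replicate number, a bar at the mean and a whisker of 1 SD. The treated libraries lie above all controls for 8 genes, below them for ATF5, and overlap them for CEBPD.

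ATF4, the factor the response is named for, lies on chromosome 22 (Entrez 468, 39520559 to 39522686). Its control libraries held 132, 144 and 128 CPM and its treated libraries 334, 352 and 316. Every treated library was thus above every control. The change was 1.31 ± 0.06, or 2.48-fold, with an edgeR adjusted p of 8.9e-11, the smallest change among the 8 risen genes. The rows of its pseudogenes ATF4P1, ATF4P2, ATF4P3 and ATF4P4 held 0 counts in every library.

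ATF5, the closest relative of ATF4, is likewise controlled by upstream open reading frames and is known as a regulator of the mitochondrial stress response. It lies on chromosome 19 (Entrez 22809, 49928906 to 49933935). Its controls held 26.4, 33.1 and 26.7 CPM against 21.1, 25.5 and 22.2 after mitocurcumin. The highest treated library was just below the lowest control. The fall was by 0.33 ± 0.11 on the log2 scale, with an edgeR adjusted p of 0.0297. That call was lost without control replicate 2 (0.195), mitocurcumin replicate 1 (0.135) or mitocurcumin replicate 3 (0.130). The first 599 bases of the row overlap NUP62, a nuclear pore gene on the opposite strand, which changed by -0.32 ± 0.07, and whether the counting used strand was not given in the sources used here. IL4I1, an amino acid oxidase gene that overlaps the same bases, was at 0.480 and 0.974 CPM in the group means and did not pass (1.00 ± 0.43).

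DDIT3 encodes CHOP, a C/EBP-related factor whose dimers avoid classical C/EBP sites and which promotes cell death when stress persists. On chromosome 12 (Entrez 1649, 57516588 to 57520517), it had 4.87, 6.07 and 4.18 CPM in the controls. The treated libraries held 42.4, 33.3 and 40.9 CPM, lowest in replicate 2. DDIT3 thus rose by 2.94 ± 0.14, or 7.68-fold, with an edgeR adjusted p of 1.2e-10. Its last 65 bases overlap MARS1, the methionyl-tRNA synthetase gene on the opposite strand, which also rose, by 1.39 ± 0.06. MIR616, inside DDIT3 on the same strand, went from 0.0683 to 0.667 CPM (3.20 ± 0.61). Its controls held only 0.862, 2.35 and 1.70 estimated counts, and whether its reads came from DDIT3 transcripts was not tested. LOC128125814, a coding row that covers 2769 bases of DDIT3, held 12.0 counts over the 6 libraries, all of them in the controls. How reads common to these rows were divided is not given in the sources used here.

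ATF3 and JDP2 are closely related factors that can bind AP-1 and CRE sites and often repress them. ATF3 (Entrez 467, chromosome 1, 212565407 to 212620777) had 3.09, 2.17 and 3.28 CPM in the controls and 17.5, 15.9 and 16.7 after mitocurcumin. JDP2 (Entrez 122953, chromosome 14, 75427724 to 75474107) went from 5.93, 6.15 and 4.99 CPM to 25.1, 27.2 and 28.1. The treated values of each gene lay close together and far above the controls. ATF3 rose by 2.56 ± 0.16 (5.88-fold) and JDP2 by 2.23 ± 0.12 (4.69-fold), with edgeR adjusted p-values of 2.6e-09 and 4.1e-10.

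Among the C/EBP factors, CEBPG and CEBPB rose while CEBPD did not pass the test. CEBPG, a short C/EBP protein and a known partner of ATF4, lies on chromosome 19 (Entrez 1054, 33373709 to 33382686). It held 60.1, 60.9 and 67.5 CPM in the controls and 185, 177 and 187 in the treated libraries, a tight rise of 1.54 ± 0.06. CEBPB, an activator of inflammatory and metabolic genes made as longer and shorter forms, lies on chromosome 20 (Entrez 1051, 50190583 to 50192690). Its controls held 21.2, 17.6 and 15.8 CPM and its treated libraries 51.2, 46.6 and 47.4, a rise of 1.41 ± 0.10. The edgeR adjusted p-values were 1.7e-11 and 2.3e-08. CEBPB-AS1, on the opposite strand over 1487 bases of CEBPB, had 2.93 and 3.40 CPM in the group means (0.22 ± 0.23) and did not pass. CEBPD, an acute-phase factor on chromosome 8 (Entrez 1052, 47736913 to 47738164), had 4.45, 3.17 and 2.43 CPM in the controls and 3.92, 5.97 and 3.33 in the treated libraries. The groups overlapped, replicates varied by 30.5% and 31.5% of the mean, and the change of 0.39 ± 0.25 did not pass (edgeR adjusted p = 0.265). Leaving out control replicate 1, the highest control, gave 0.64 (edgeR adjusted p = 0.0332). The change was 0.22 without control replicate 3 and 0.11 without mitocurcumin replicate 2, and over all alternatives the edgeR, DESeq2 or limma adjusted p lay between 0.0332 and 0.811.

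TRIB3 and NUPR1 are known targets of ATF4 that act around these factors. TRIB3 (Entrez 57761, chromosome 20, 380760 to 397559) binds ATF4 and CHOP and dampens their activity, and also binds AKT kinases. Its level was 7.5, 6.19 and 5.16 CPM in the controls and 93.9, 94.8 and 85.5 in the treated libraries. This was the largest change of the 10, at 3.86 ± 0.11 or 14.5-fold (edgeR adjusted p = 2.1e-13), and rank 5 of all tested genes by rise. NUPR1 (Entrez 26471, chromosome 16, 28532708 to 28538974), a stress-induced chromatin-associated protein, went from 1.65, 2.82 and 1.71 to 13.6, 12.5 and 12.4 CPM. Control replicate 2 was the highest control, and its groups were still far apart. NUPR1 rose by 2.63 ± 0.19, or 6.17-fold (edgeR adjusted p = 1.6e-08), from 39.0, 72.7 and 40.0 estimated counts in the controls.

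**Figure D2:**
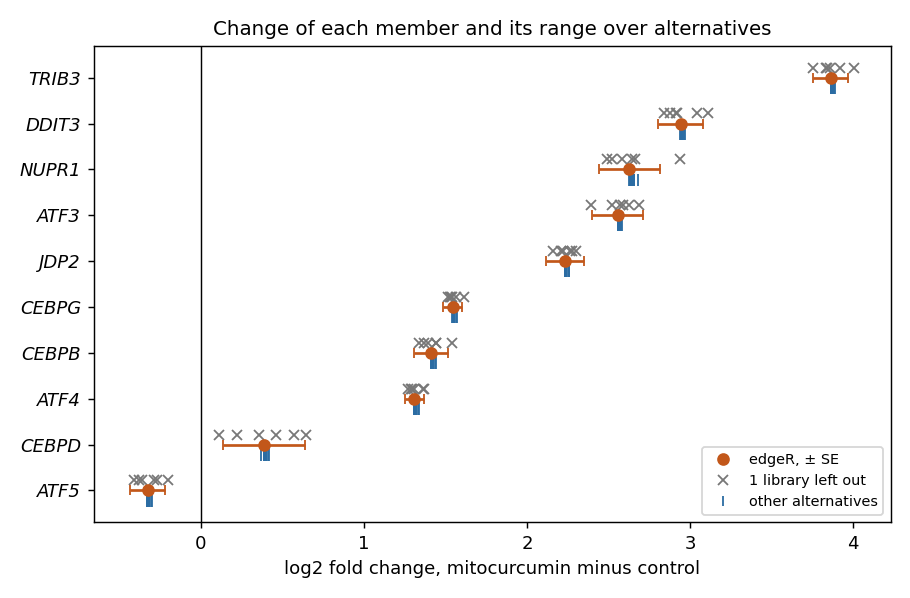
Log2 fold change of each of the 10 genes (x axis), with the SE of the edgeR fit as bars, crosses for fits that leave out 1 library and ticks for the other alternatives. The 8 risen genes stay between 1.27 and 4.01 in every fit shown, while ATF5 and CEBPD lie near 0.

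The order of the rises was not tested gene against gene. The changes of ATF4, CEBPB and CEBPG ran from 1.31 to 1.54 and those of JDP2, ATF3 and NUPR1 from 2.23 to 2.63, with DDIT3 and TRIB3 above them. The lowest treated value was in mitocurcumin replicate 2 for 4 of the 8 risen genes, and for 45.2% of all 2425 risen genes.

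Levels between genes were compared per kilobase of transcript, over the shortest and the longest transcript in GENCODE 29 linked to a RefSeq mRNA. By this measure ATF4 was the most abundant of the 10 in either group. In the controls it had 66.7 ± 4.07 CPM per kilobase (SD, n = 3) with its longest transcript and 94.9 ± 5.80 with its shortest. CEBPG followed at 15.3 to 16.3 and ATF5 at 13.9 to 17.6, and the order of that pair was not resolved. After mitocurcumin ATF4 was at 165 ± 8.98 to 235 ± 12.8 CPM per kilobase. CEBPG, at 44.5 to 47.6, TRIB3, at 36.6 to 59.6, and DDIT3, at 36.4 to 42.9, then came next without a resolved order, and ATF5, at 11.1 to 14.0, was below all 3. CEBPD was low throughout, at 1.54 ± 0.469 and 2.02 ± 0.636. Its linked transcript, of 2178 bases, is longer than the span of its counted row, so these values per kilobase are understated. For ATF3, JDP2 and NUPR1 the linked transcripts differ too much in length to place them, as for NUPR1 at 2.34 to 23.3 after treatment.

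For factors that can pair or compete, the ratio of their counts was taken within each library and compared between the groups. This needs no length. The ratios are of mRNA, so the balance of the proteins was not measured, and each change restates the changes of its genes. The ratio of ATF5 to ATF4 counts was 0.200, 0.230 and 0.209 in the controls and 0.0633, 0.0725 and 0.0703 after mitocurcumin, a log2 change of -1.63. The ratio of DDIT3 to CEBPB was 0.229, 0.346 and 0.265 in the controls and 0.827, 0.715 and 0.861 in the treated libraries, a change of 1.53. Relative to ATF4, DDIT3 shifted by 1.65, and relative to CEBPG by 1.41. The ratio of CEBPD to CEBPB changed by -1.03. These 5 ratios did not overlap between the groups, whereas ATF3 to JDP2 did overlap, with means of 0.511 ± 0.153 and 0.626 ± 0.0633 (SD, n = 3). With 3 libraries against 3 the exact two-sided permutation p cannot go below 0.1, which each of the 5 reached, and it was 0.12 after adjustment over the 6 ratios. ATF3 to JDP2 had an exact permutation p of 0.3.

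The rest of the bZIP family moved less uniformly. Of all tested genes 14.7% were higher and 17.8% lower. Of 45 further bZIP genes 39 were tested, and 11 were higher, 8 lower and 20 did not pass. Their median was 0.10, and 1 of them rose at least 2-fold, whereas 6 of the 8 bZIP genes around ATF4 and CHOP did so. Those 8 were chosen with earlier results of these data known. The 1 further gene with such a rise was XBP1, the factor of the IRE1 branch of the unfolded protein response, from 67.7 to 159 CPM (1.23 ± 0.06). At the other end were the AP-1 subunits FOSB, from 24.5 to 1.5 CPM, and FOS, from 75.7 to 7.81, the only further members that fell at least 2-fold. ATF3 and JDP2, which can form dimers with JUN, thus rose in the same libraries in which JUN went from 146 to 83.3 CPM (-0.81 ± 0.06). Of the other ATF genes, ATF1 rose by 0.38 ± 0.08 and ATF2 by 0.22 ± 0.06, and ATF7 fell (-0.40 ± 0.09), a change of the size of that of ATF5. ATF6 at 0.13 ± 0.06 and ATF6B at -0.21 ± 0.09 did not pass. CEBPA and CEBPE had too few counts to be tested.

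**Figure D3:**
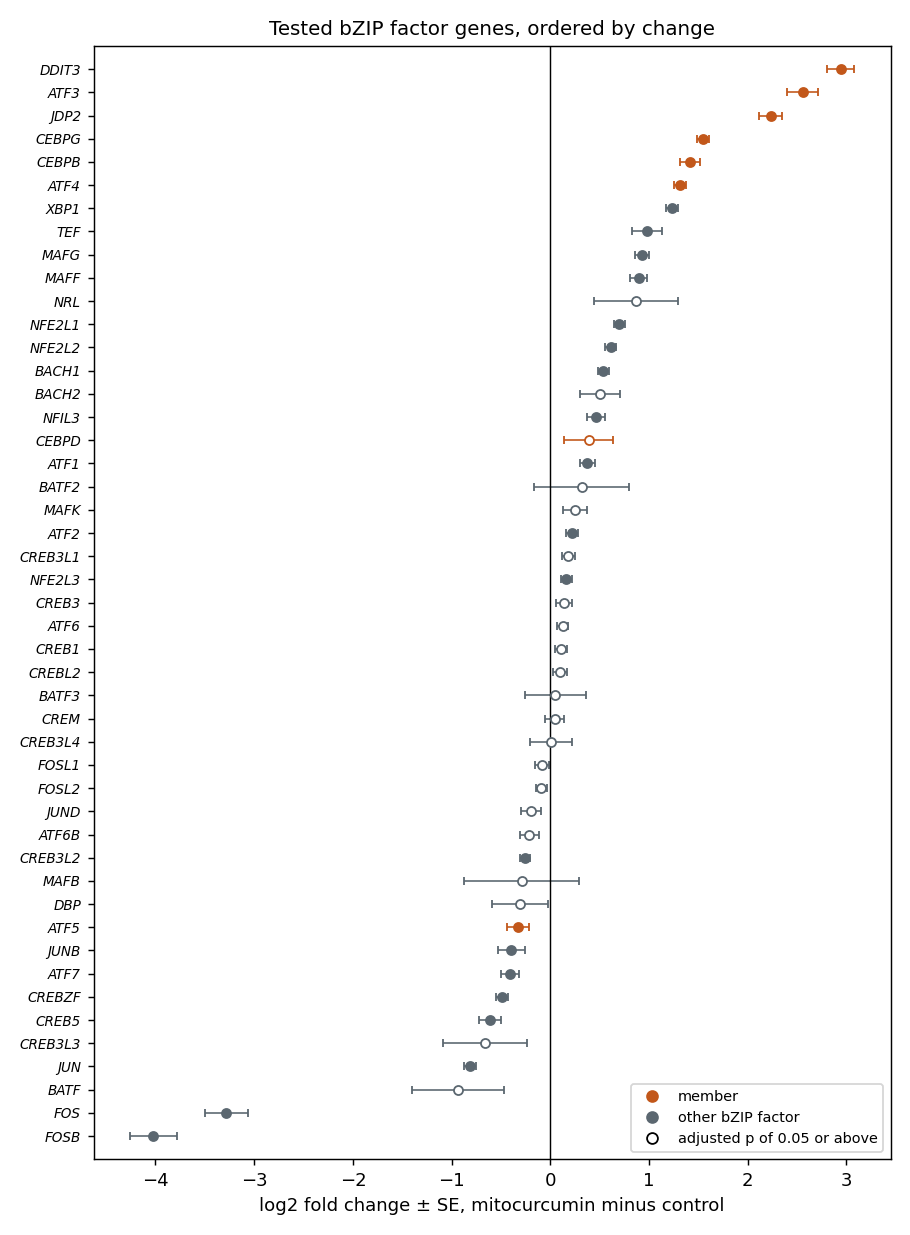
Log2 fold change ± SE (x axis) of the 47 tested bZIP genes in order of change, orange for those around ATF4 and CHOP and grey for the others, with open points for genes short of the threshold. DDIT3, ATF3, JDP2, CEBPG, CEBPB and ATF4 lie above XBP1 at 1.23, while FOS and FOSB lie apart at the bottom.

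Most known ATF4 targets outside the 10 genes rose. Of 47 listed, 45 were tested, 42 were higher, 34 of them at least 2-fold, and the median was 1.39. Among all tested genes 14.7% were higher, and 2.25% rose at least 2-fold. The list was chosen with earlier results of these data known. CTH, which makes cysteine from cystathionine, went from 6.36 to 89.8 CPM (3.81 ± 0.10), and ASNS, asparagine synthetase, from 16 to 166 (3.38 ± 0.07). The secreted ADM2 and GDF15, the leucine sensor SESN2, the glutathione-degrading CHAC1, the serine synthesis enzyme PSAT1 and the cystine transporter SLC7A11 rose by 2.52 to 3.79. ALDH18A1, of proline synthesis, was the 1 lower gene (-0.36 ± 0.06), and ALDH1L2 (0.52 ± 0.26) and VEGFA (-0.12 ± 0.05) did not pass.

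The composite element of JDP2 and CEBPG recurred among these targets. Of 37 tested targets with a promoter 11 held TGATGNAAN, and 6 held the exact letters TGATGCAAC, a string chosen after the matches of JDP2 and CEBPG were seen. The 5 of these 6 that rose at least 2-fold are shown beside the sequences of JDP2 and CEBPG above, each on the strand that reads TGATGCAAC.
CHAC1, chr15:40953251-40953279, minus strand: ctggcaggagTGATGCAACggcaggggag
HERPUD1, chr16:56931955-56931983, minus strand: gggcacgggcTGATGCAACccgccgcgtc
CARS1, chr11:3057408-3057436, plus strand: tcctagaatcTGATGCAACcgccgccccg
AARS1, chr16:70289676-70289704, plus strand: ctaacttggcTGATGCAACtgcgagaaaa
MARS1, chr12:57488053-57488081, minus strand: aatccctcgcTGATGCAACcggaaccggc
Changes of these genes ran from 1.39 for MARS1 to 2.96 for CHAC1. Over all 12753 tested genes with a promoter, 29 or 0.227% held TGATGCAAC, and over the 274 that rose at least 2-fold, 9 or 3.28% did. Those 9 were these 5 with JDP2, CEBPG, IL20RB and RSL24D1. JDP2 and CEBPG gave the string, so their place among the 9 and the 29 was fixed in advance. Of the 29 genes, 19 rose, 4 fell and 6 did not pass, and GOT1 and GOT1-DT share 1 match. Among all tested genes 14.7% were higher and 17.8% lower. TGATGNAAN was held by 2.97% of tested genes with a promoter, by 10.2% of those that rose at least 2-fold and by 4.17% of the 144 that fell at least 2-fold.

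Genes upstream of ATF4, which phosphorylate eIF2alpha or undo it, went either way. Of 15 tested, 2 were higher and 5 lower, with a median of -0.05. Without mitocurcumin replicate 2 these counts were 1 and 3. For comparison, 14.7% of all tested genes were higher and 17.8% lower. PPP1R15A, the inducible subunit (GADD34) of the phosphatase that restores eIF2alpha, rose from 129 to 364 CPM (1.49 ± 0.06), and the constitutive subunit PPP1R15B did not pass (0.12 ± 0.06). The kinase gene EIF2AK3, for PERK, rose by 0.31 ± 0.09, a call lost without mitocurcumin replicate 2 (0.24, edgeR adjusted p = 0.0874). GCN1, which activates the kinase GCN2, changed by -0.30 ± 0.07, EIF2AK4, for GCN2 itself, by -0.17 ± 0.05 and EIF2AK1, for HRI, by -0.22 ± 0.05. The call of EIF2AK4 was lost without control replicate 2 or 3 or mitocurcumin replicate 2 or 3 (edgeR adjusted p = 0.0711 to 0.132). DELE1 and OMA1, which relay mitochondrial stress to HRI, did not pass, at 0.18 ± 0.09 and 0.11 ± 0.11.

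Genes linked to CHOP in cell death and recovery split. Of 13 tested, 6 were higher and 3 lower, with a median of 0.12. The shares of all tested genes were 14.7% higher and 17.8% lower. BBC3, the death activator PUMA, went from 0.653 to 3.35 CPM (2.34 ± 0.27), and TNFRSF10B, the death receptor DR5, from 183 to 274 (0.58 ± 0.05). PPP1R15A belongs to this list as well. ERO1A, an oxidase of the endoplasmic reticulum described as a CHOP target, changed by -0.31 ± 0.05, and BCL2, described as repressed by CHOP, by -0.30 ± 0.11. The call of BCL2 was lost without control replicate 2 or 3 or mitocurcumin replicate 1 or 3 (edgeR adjusted p = 0.108 to 0.240). BAK1 (0.36 ± 0.11), PMAIP1 (0.18 ± 0.06) and TNFRSF10A (-0.27 ± 0.08) also lost their calls in some fits without 1 library. Without control replicate 2 or mitocurcumin replicate 2, the list had 4 higher and 2 lower genes. The death activator BCL2L11, BIM, stayed at 25 and 24.4 CPM and did not pass.

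Of 17 tested genes that control or bind these factors, 2 were higher and 3 lower, with a median of 0.00. Over all tested genes 32.5% were called, so this share was not above the background. EGLN3, an oxygen sensor that destabilizes ATF4, changed by -1.18 ± 0.11, from 26.3 to 11.6 CPM. TRIB2, a sister of TRIB3, changed by -0.62 ± 0.06 and TRIB1 stayed at 0.02 ± 0.09, so that the tribbles genes went different ways. HSPA8, a constitutive chaperone, rose by 0.51 ± 0.05 and AKT1, a kinase bound by TRIB3, changed by -0.31 ± 0.07, a call lost without mitocurcumin replicate 3 (edgeR adjusted p = 0.0526).

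Genes of the other arms of the unfolded protein response went either way, with 5 higher and 6 lower of 21 tested and a median of -0.08. Among all tested genes, 14.7% were higher and 17.8% lower. DNAJB9, XBP1 and its activating kinase ERN1 led with 1.63 ± 0.08, 1.23 ± 0.06 and 0.96 ± 0.08. HSPA5, the chaperone BiP, rose by 0.60 ± 0.06, while HSP90B1 (-0.08 ± 0.06) and HYOU1 (-0.08 ± 0.05) did not pass and CALR fell (-0.27 ± 0.06). Only 6 of these genes were called without mitocurcumin replicate 2 and 5 without mitocurcumin replicate 3, with 4 higher in each case.

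**Figure D4:**
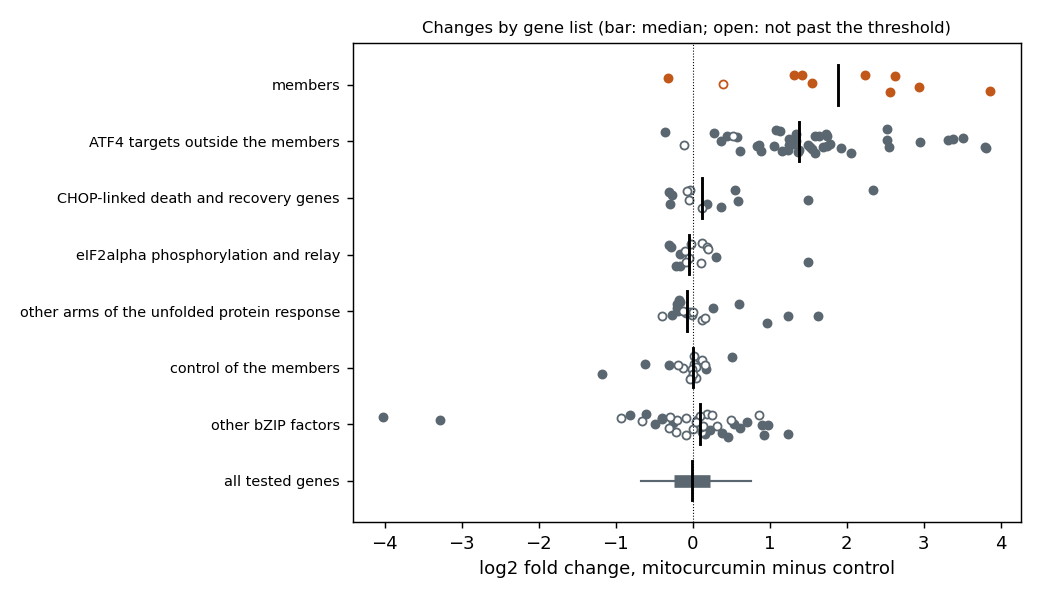
Log2 fold changes (x axis) of the genes of each list, with open points for genes short of the threshold and a black bar at each median. The bottom row gives all tested genes as a line from the 5th to the 95th percentile (-0.67 to 0.76) with a thick middle part between the quartiles. The 10 genes and the ATF4 targets lie mostly above 1, and the other lists lie around 0.

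Genes with the most similar course were sought for 4 of the genes by the distance of their log2 CPM, each minus its control mean, over the 6 libraries, among 11155 further genes at a mean of at least 5 CPM. COX19, CLDN1 and KLHL24 were nearest to ATF4, at distances of 0.14 to 0.18. DDIT3 was nearest to HSPA1B, HSPA1A and CHAC1, at 0.31 to 0.46, and the first of these, inducible HSP70 genes, are nearly identical to each other and may share reads. TRIB3 was nearest to ADM2, CTH and ASNS, at 0.41 to 0.92. EFCAB7, DDB2 and SQLE were nearest to ATF5, at 0.10 to 0.15, and of these SQLE passed the test (edgeR adjusted p = 0.0315) while EFCAB7 and DDB2 did not (0.122 and 0.0575). The measure weighs size and replicate spread alike and is a description of 6 libraries.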

How the data were processed

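Stranded libraries were made from poly(A) RNA, per the labels' protocols. The submitters' processing notes name GRCh38, and the gene model is RefSeq, per the file headers. Aligner, counter and use of strand are not given in the sources used here. Estimated counts make up the authors' deposited raw table (20.8% of values above 0 are whole), and the authors' deposited normalized values are log2 of these over 1 factor per library, with raw values up to 1.19 listed at 0. Columns were matched to samples by treatment and replicate number. The heading of mitocurcumin replicate 2 carries a sample number out of sequence with the others, and the reason is not given in the sources used here.

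These counts were rounded for edgeR 4.0.16 under R 4.3.3 (quasi-likelihood F-test, robust, TMM, group as the only term). The filter filterByExpr (minimum count 10, minimum total 15) kept 16481 genes, with a biological coefficient of variation of 8.43%. Adjusted p-values are two-sided, by Benjamini-Hochberg over all tested genes, called under 0.05. Each SE is the coefficient over the root of F. The procedure was tested on simulated data.

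The genes and lists were chosen with earlier results of these data known. All 10 genes were named. From other lists, called genes changed at least 2-fold were named, up to 8, or the 3 largest changes where fewer, with genes overlapping the 10. Others were named after their values were seen. Alternatives covered scaling, filters, DESeq2 1.42.0, limma 3.58.1 (voom, and on the deposited log2 values), unrounded counts, a replicate block, a threshold of 0.01 and each library left out.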

Additional observations from a re-analysis of the deposited data

How the results depend on the processing

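The 10 genes under 16 alternatives gave 160 values, and 155 of these kept their direction and their side of the threshold. ATF5 lost its call in 4, without control replicate 2, mitocurcumin replicate 1 or mitocurcumin replicate 3 and at the threshold of 0.01, with changes of -0.41 to -0.20 over the fits without 1 library, and CEBPD gained a call in 1. The cause was not tested.

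Between 8 and 10 of the 10 genes were called under every alternative. Over all genes the count of 5363 ranged from 4085 to 6084 when 1 library was left out and was 3654 at 0.01. The 6084 came without control replicate 1, and leaving out any other library gave 4085 to 4736. On the second principal component of log2 CPM, control replicate 1 lay at 31.3 and the other controls at -17.1 and -17.2. The cause was not tested. Counts without 1 library ranged from 4 to 9 for the genes around eIF2alpha phosphorylation, lowest without mitocurcumin replicate 2, and from 5 to 13 for the other unfolded protein response genes. They were 17 to 20 for the further bZIP genes, 42 to 43 for ATF4 targets, 6 to 10 for CHOP-linked genes and 4 to 6 for the controlling genes.

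Scalings moved the median of all genes by less than 0.1 on the log2 scale. With a replicate block, ATF5 changed by -0.32. Deviations from group means correlated weakly between same-numbered libraries, at 0.10, 0.02 and -0.01 for numbers 1 to 3. Not every library correlated best with its own number. With 3 libraries in a group, these values cannot decide whether same-numbered libraries were paired. The block called 5806 genes, against 5363 without it. The fewest estimated counts were in the controls of NUPR1, ATF3 and CEBPD, at 39.0 to 105, and NUPR1 and ATF3 were called in all 16 alternatives.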

Other observations

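The bZIP factors that pair with small MAF proteins at antioxidant response elements were grouped after their values were seen, so their count is no evidence about the group. Over all tested genes 14.7% rose. NFE2L1 and NFE2L2, the activators NRF1 and NRF2, rose by 0.70 ± 0.05 and 0.61 ± 0.05, from 345 to 560 and from 159 to 243 CPM. Their partners MAFG and MAFF rose by 0.93 ± 0.07 and 0.90 ± 0.09, and the repressor BACH1 by 0.54 ± 0.05. NFE2L3 rose by 0.16 ± 0.06, a call lost without any 1 of 4 libraries. MAFK (0.25 ± 0.12) and BACH2 (0.50 ± 0.21) did not pass, and NFE2 was not tested. The clock-related factors TEF and NFIL3 rose by 0.98 ± 0.16 and 0.46 ± 0.09, and their relative DBP did not pass (-0.31 ± 0.28).

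Among the 29 genes with TGATGCAAC in a promoter, those outside the ATF4 target list that rose included IARS1, an isoleucyl-tRNA synthetase gene (0.97 ± 0.05), GOT1, an aspartate aminotransferase gene (0.82 ± 0.06), and RSL24D1, a ribosome assembly gene (1.01 ± 0.06). PPP1R15B also held it and did not pass (0.12 ± 0.06), and TRUB1, ZBTB38, ARHGEF7 and LINC02970 held it and fell by 0.31 to 0.59.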
